A study of Mus musculus with 4 samples.

Results

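Splenic regulatory T cells (Treg) of mice that drank dextran sulfate sodium (DSS) for 7 days were compared with splenic Treg of untreated mice, gene by gene, by RNA sequencing. Both groups were Balb/c mice with a human CD2 reporter at Foxp3, and the cells positive for human CD2 were purified from them. The treated group received 3% DSS in the drinking water and the untreated group is labelled as not treated. Each group is 1 library, and the labels do not state how many mice gave the cells or whether mice were pooled. The members are all named genes of the deposited table, 10663 of the 23259 genes listed over the whole series, which also holds a vector experiment in CD4 T cells that is used here only for a side comparison.

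The values are FPKM, fragment numbers divided by the length of the gene and by the size of the library, so that levels can be set beside each other. Where 2 levels of a gene are given, the untreated library comes first. A gene's change means log2(FPKM + 1) after DSS less the same value without it, and it stands in brackets after the levels. It was taken for the 10545 genes whose mean of both libraries was at least 1 FPKM. At the edge of that filter Wfs1 was just inside, with 0.976 FPKM without DSS and 1.03 FPKM after it, and Lair1 was just outside, with 1.03 and 0.965 FPKM. With 1 library a side there is no spread between replicates to set a difference against, so no test was made, and every statement below describes these 2 libraries. The table lists a gene only where at least 1 library exceeded 1 FPKM (the lowest such value is 1.00036), and the number of fragments behind the values is unknown. A gene near that level is therefore listed because it is high in 1 of the libraries, and counts over such low genes carry a direction that the listing itself can set.

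Treg are CD4 T cells that carry the transcription factor Foxp3 and restrain other immune cells. They depend on interleukin 2, which they bind through the receptor chain Il2ra, and on signals of the T cell receptor. DSS is a sulfated polymer that damages the lining of the colon, which makes it a common model of colitis. The spleen is not the injured organ. It filters blood, houses recirculating lymphocytes and, in mice, also makes red cells and myeloid cells, more so under inflammation and blood loss. Interferons are cytokines that act through receptors, Janus kinases and transcription factors such as Stat2 and Irf9, and that raise a large set of antiviral genes. Cells tune cholesterol through the factor Srebf2, which raises the enzymes that make cholesterol.

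Most interferon-induced genes and genes of MHC class I presentation were lower in the DSS library, as were most enzymes of cholesterol synthesis and cytosolic chaperones. Most genes of fatty acid oxidation, of antioxidant defence and of amino acid supply, the metallothioneins, the cholesterol exporter Abca1 and most genes of replication and mitosis were higher. Genes of red cell precursors and most of those of basophils were also higher, in a library labelled as Treg. Foxp3 and the T cell receptor complex were at nearly the same level on both sides. The plot of change against mean level shows several of these groups among all genes.

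**Figure D1:**
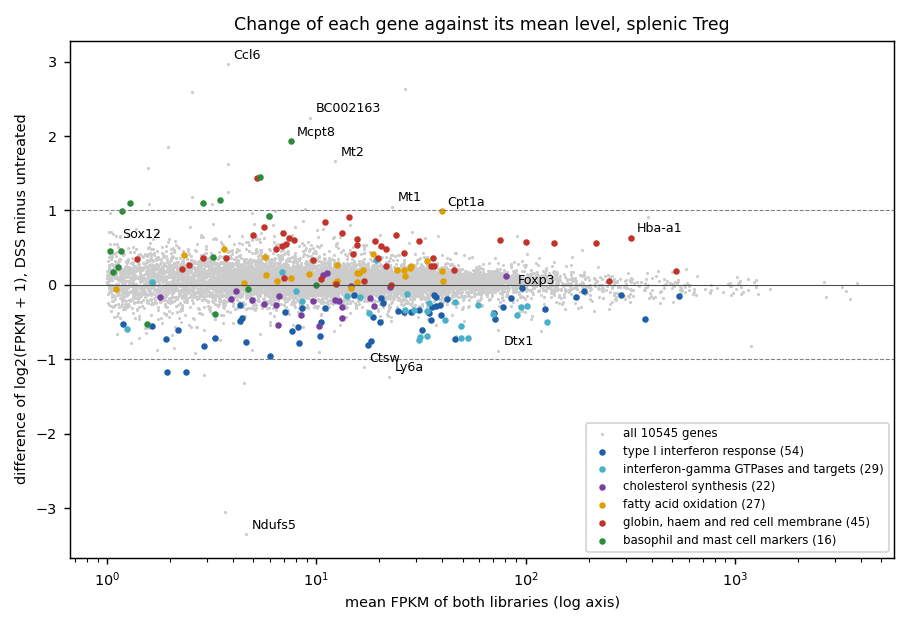
Difference of log2(FPKM + 1), DSS minus untreated, against the mean FPKM of both libraries (log axis) for the 10545 genes past the filter, with 6 gene groups in colour and dashed lines at changes of 1 and -1. Members of the type I interferon list lie below 0, red cell genes above 0, and no gene whose mean reaches 50 FPKM lies beyond a dashed line.

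Most genes differed little. The median change was 0.05, and the central 90% of genes lay between -0.20 and 0.31. Of the genes past the filter, 66.1% had a change above 0 and 33.9% a change below 0. This split moved with the scaling: it was 50% and 50% with the median change set to 0, which is so by construction, and 56.6% and 43.4% with the 75th percentiles made equal. A change of at least 0.3 was seen in 553 genes (5.24%) and a change of -0.3 or lower in 231 genes (2.19%), and with the median change set to 0 these were 399 and 350 genes. A change of at least 1 was seen in 20 genes (0.190%) and a change of -1 or lower in 8 genes (0.0759%). With a pseudocount of 5 in place of 1 these last counts were 6 and 3. Low genes spread more. Of the 2487 genes with a mean from 1 to 5 FPKM, 10.7% had a change of at least 0.3 and 4.1% of -0.3 or lower. For the 1209 genes whose mean reached 50 FPKM these shares were 1.49% and 1.99%.

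Promoters of genes with large differences, from lists with a known control element, are shown here because interferon, zinc, sterol, heat shock and E2F control each act through a short motif. Promoter sequences are from RefSeq on GRCm38.p6 and run from 250 bases before to 50 bases after a start site. The interferon-stimulated response element was searched as TTTCNNTTTC, where N is any base, and the metal response element, the site of the zinc sensor Mtf1, as TGCGCNC or TGCACNC, both on either strand. The 4 promoters below belong to the members with the largest change in size whose promoter held the motif of its list. Letters in capitals are the motif matches.
Mt2, chr8:94172368-94172667, plus strand: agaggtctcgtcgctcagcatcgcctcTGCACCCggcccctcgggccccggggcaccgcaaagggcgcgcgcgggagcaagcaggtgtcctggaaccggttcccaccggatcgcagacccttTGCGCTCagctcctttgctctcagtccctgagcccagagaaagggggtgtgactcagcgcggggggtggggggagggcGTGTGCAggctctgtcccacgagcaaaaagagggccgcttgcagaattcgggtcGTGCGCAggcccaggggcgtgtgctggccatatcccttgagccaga
Mt1, chr8:94178839-94179138, plus strand: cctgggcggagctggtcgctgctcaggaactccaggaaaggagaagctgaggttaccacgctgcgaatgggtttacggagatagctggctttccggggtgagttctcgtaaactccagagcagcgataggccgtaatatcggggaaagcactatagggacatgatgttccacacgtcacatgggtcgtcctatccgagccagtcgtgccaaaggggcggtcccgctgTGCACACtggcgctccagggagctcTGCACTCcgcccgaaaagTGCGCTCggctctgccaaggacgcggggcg
Oas3, chr5:120777610-120777909, minus strand: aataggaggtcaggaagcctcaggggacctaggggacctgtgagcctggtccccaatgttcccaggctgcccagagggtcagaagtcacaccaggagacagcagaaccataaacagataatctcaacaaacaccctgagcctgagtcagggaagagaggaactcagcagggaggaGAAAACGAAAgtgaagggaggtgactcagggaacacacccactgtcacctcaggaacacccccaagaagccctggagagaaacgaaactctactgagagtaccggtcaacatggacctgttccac
Ifit3, chr19:34583279-34583578, plus strand: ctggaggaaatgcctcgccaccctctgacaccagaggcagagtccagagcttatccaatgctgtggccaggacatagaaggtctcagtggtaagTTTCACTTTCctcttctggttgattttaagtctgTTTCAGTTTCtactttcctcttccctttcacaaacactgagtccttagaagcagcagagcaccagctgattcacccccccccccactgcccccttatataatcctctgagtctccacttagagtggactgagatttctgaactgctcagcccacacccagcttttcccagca

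The Mt2 promoter held 4 matches of the metal response element, which begin at -223, -128, -50 and 4 when the start site is counted as 0. The Mt1 promoter held 3 matches, at -23, 2 and 20. The response element for interferon occurred at -75 in the Oas3 promoter, and at -156 and -122 in the Ifit3 promoter. A match is a string of letters in these windows and not evidence that a factor was bound.

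Of the 54 members of the type I interferon list past the filter, 43 were matched to a promoter and 17 of these (39.5%) held TTTCNNTTTC in at least 1 promoter. Oas1b was matched by synonym to the promoter of Oas1g, so both count among the 17 through the same sequence. With each promoter counted once, 18 of 51 (35.3%) held the motif. Among all 32851 promoters of the same length the share was 3.44%, and among the 8469 genes past the filter with a promoter it was 3.87%. The 17 members with the motif had a median change of -0.44, and the 26 without it -0.32. The metal response element is short and common: 9 of 17 zinc genes (52.9%) held it, beside 25.7% of all promoters and 40.3% of genes past the filter. Those 9 genes had a median change of 0.31 and the 8 without it 0.00. The heat shock element, searched as TTCNNGAANNTTC, was in 5 of 21 chaperone genes (23.8%), in 0.603% of all promoters and in 0.543% of genes past the filter. Hsph1, the member with the largest change, held it, but the 5 genes with it had a median change of -0.05 and the 16 without it -0.10. The E2F site, TTTCCCGC or TTTGGCGC, was in 11 of 35 replication genes (31.4%), in 1.57% of all promoters and in 3.71% of genes past the filter. The 11 genes with it had a median change of 0.17 and the 24 without it 0.22. The sterol regulatory element, TCACNCCAC, was in 1 of 17 cholesterol enzymes, Hmgcs1, in 1.24% of all promoters and in 1.38% of genes past the filter.

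Members of the type I interferon list, among them genes that block viral replication or sense viral nucleic acid, were all lower in DSS Treg where they had a row. All 54 members past the filter had a change below 0, beside 33.9% of all genes, and 37 had a change of -0.3 or lower, beside 2.19% of all genes. Their median change was -0.39, beside 0.05 for all genes. The list has 59 genes, of which 56 have a row. The 2 members at or below the filter, Oasl2 (1.35 and 0.272 FPKM) and Trim30d (1.03 and 0.726 FPKM), were lower as well. This list was chosen with earlier results of these data known. It does not hold the 3 Ifitm genes, which stand in the list of interferon-gamma targets and were higher. In bulk RNA fewer cells that carry a transcript and less of it per cell cannot be told apart, here or in any group that follows.

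The Oas family includes enzymes that make the second messenger that activates RNase L, and its 7 genes past the filter ranged from -1.18 to -0.27. Oas2 had 3.70 FPKM without DSS and 1.08 FPKM after it, and Oas3 had 8.28 and 3.77 FPKM. Oas1a and Oas1g share 57.6% of the 50-base words of Oas1a, so reads could be split between them, and both were lower (6.08 and 3.14 FPKM, 2.85 and 1.53 FPKM). Ifi44 had 3.08 and 0.802 FPKM, a change of -1.18, and so was below the listing level in the DSS library. Of the Ifit genes, which bind foreign RNA, Ifit3 (3.99 and 1.81 FPKM) and Ifit1 (10.7 and 5.77 FPKM) were lower by about the same amount, with changes of -0.83 and -0.78. Ifit3 shares 51.2% of its 50-base words with Ifit3b, which has no row. Ifit2 differed less, with 15.8 and 14.4 FPKM (-0.13), although it belongs to the same family.

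The ubiquitin-like system of ISG15 was lower at each step that had a value. Isg15 itself, a small protein that is joined to other proteins, had 23.1 FPKM without DSS and 13.3 FPKM after it. Uba7, the enzyme that activates it, had 41.1 and 29.3 FPKM. Herc6, its ligase in mice, had 9.55 and 7.52 FPKM, and Usp18, which removes it and also restrains the type I interferon receptor, had 13.1 and 7.74 FPKM. Among abundant members, Ifi27l2a had 430 and 314 FPKM (-0.45), Zbp1, a sensor of Z-form nucleic acid, had 82.5 and 60.0 FPKM (-0.45), and Slfn1 had 138 and 109 FPKM (-0.33). Bst2, which tethers virus particles to the cell, had 57.6 and 34.5 FPKM (-0.72). The sensors of viral RNA Ifih1 (8.09 and 6.08 FPKM), Ddx58 (27.7 and 21.4 FPKM) and Dhx58 (9.91 and 6.34 FPKM) were lower too. The smallest differences were those of Ly6e (97.4 and 94.2 FPKM) and Slfn2 (195 and 184 FPKM), so the size of the difference was not the same across the list.

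Targets best known from interferon-gamma were lower in 25 of 29 members, beside 33.9% of all genes. Of the 29, 15 were at -0.3 or lower, beside 2.19% of all genes, and the median was -0.33. The 6 immunity-related GTPases, which attack the vacuoles of intracellular parasites, ranged from -0.72 to -0.36. Tgtp1 had 60.9 and 36.8 FPKM and Tgtp2 66.3 and 39.9 FPKM. These genes share 79.4% of the 50-base words of Tgtp1, and their values cannot be taken as independent. Iigp1 had 42.0 and 25.7 FPKM, Irgm1 58.7 and 39.8 FPKM, and Igtp 148 and 104 FPKM. All 11 guanylate-binding proteins past the filter were lower, from Gbp10 (39.0 and 23 FPKM, -0.74) to Gbp9 (49.8 and 42.4 FPKM, -0.23), and Gbp10 shares 73.3% of its words with Gbp6. Cd274, which encodes the ligand PD-L1 that inhibits T cells, had 20.3 and 15.3 FPKM (-0.38).

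A set of 3 neighbouring genes of the same list went the other way. Ifitm1, a membrane protein that hinders virus entry, had 3.80 FPKM without DSS and 8.08 FPKM after it, a change of 0.92. Ifitm2 had 16.9 and 21.6 FPKM (0.34), and Ifitm3 had 6.39 and 7.35 FPKM (0.18). Ifitm1 also stands in the list of basophil and mast cell markers, which was higher in the DSS library, and the part of those cells in its value was not tested.

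The receptors of the pathway were not lower, and of the Janus kinases named here Tyk2 was. Ifnar1, the first chain of the type I interferon receptor, had 26.7 and 26.9 FPKM, and Ifnar2 had 33.6 and 38.3 FPKM. The interferon-gamma receptor chains Ifngr1 and Ifngr2 had 100 and 123 FPKM and 20.5 and 21.4 FPKM. Jak1 had 164 and 173 FPKM, Jak2 40.8 and 44.2 FPKM and Tyk2 28 and 25.8 FPKM. The transcription factors that are themselves raised by interferon were lower. Irf7 had 38.9 and 25.2 FPKM (-0.61), Stat2 24.9 and 18.8 FPKM (-0.39) and Irf9 55.4 and 44.2 FPKM (-0.32). Irf3, which is not known as an interferon target, had 54.5 and 50.8 FPKM (-0.10). Of the inhibitors, Socs1 had 28.4 and 26.0 FPKM and Socs3, which is raised by STAT3 signals, 29.1 and 37.5 FPKM (0.36).

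**Figure D2:**
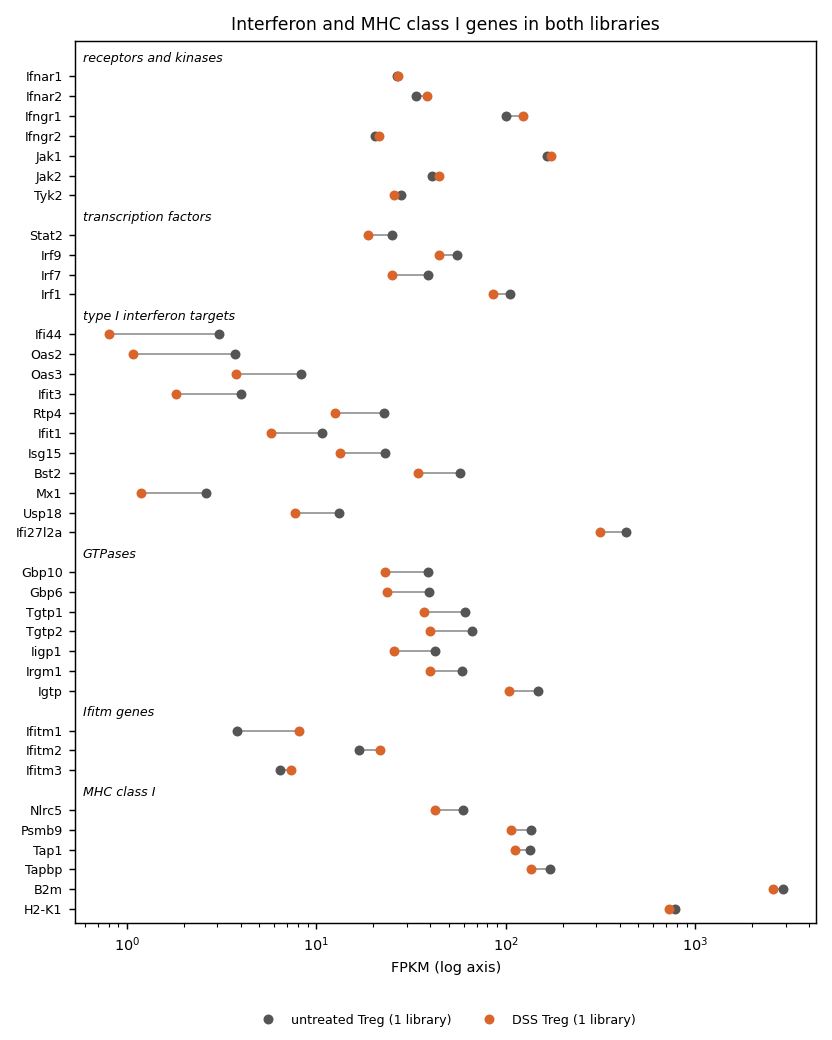
FPKM (log axis) of interferon and MHC class I genes in the untreated library (grey) and the DSS library (orange), 1 library each, grouped by role. The genes drawn are a selection. The points of receptors and kinases lie close together, those of the targets and the GTPases lie to the left in the DSS library, and those of the 3 Ifitm genes lie to the right.

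Presentation on MHC class I shows peptides to CD8 T cells, and many of its genes are raised by interferon. In this list 23 of 24 members were lower, beside 33.9% of all genes, with a median of -0.19. Of the 24, 5 were at -0.3 or lower, beside 2.19% of all genes. Nlrc5, the factor that drives transcription of MHC class I, had 59.6 and 42.4 FPKM (-0.48). The 5 subunits of the immunoproteasome and its activator ranged from -0.33 to -0.20, with Psmb9 at 135 and 107 FPKM and Psme1 at 197 and 159 FPKM. The constitutive proteasome differed less: 24 of its 33 members were higher, with none past 0.3 in either direction and a median of 0.06, close to that of all genes. The peptide transporter Tap1 had 133 and 112 FPKM and the loading factor Tapbp 171 and 136 FPKM. The abundant chains B2m (2895 and 2581 FPKM), H2-K1 (786 and 726 FPKM) and H2-D1 had changes of -0.17, -0.11 and -0.09. H2-T22 was the exception, with 27.6 and 30.3 FPKM. H2 genes are close copies of each other, so reads can be split between them.

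Several surface and lineage genes outside these lists had large differences in the same direction. Ly6a, the surface antigen Sca-1, had 31.6 FPKM without DSS and 12.8 FPKM after it (-1.24). Its relatives Ly6c1 (24.9 and 19.7 FPKM), Ly6c2 (17.5 and 15.2 FPKM) and Ly6d (2.71 and 1.51 FPKM) had changes of -0.32, -0.19 and -0.56. In that family list 5 of 7 members past the filter were lower. Cd59a (1.26 and 1.83 FPKM, 0.32) and Ly6g5b (1.67 and 2.18 FPKM, 0.25) were higher. Ly6a is also a marker of haematopoietic stem cells. Of the 8 markers of that list past the filter 6 were higher, beside 66.1% of all genes. Kit (2.65 and 3.72 FPKM) and Lmo2 (12.2 and 17.6 FPKM) were among the 6. Besides Ly6a the lower one was Myb (21.5 and 19.0 FPKM). The part of such cells in the value of Ly6a was not tested. Ctsw, a cathepsin of cytotoxic lymphocytes, had 23.5 and 10.4 FPKM (-1.11), while 26 of the 32 lysosomal genes were higher, beside 66.1% of all genes, or 19 with the median change of all genes set to 0. Where the mean reached 50 FPKM, 8 of the 12 with the lowest change belong to the interferon or MHC class I lists. The other 4 were Dtx1, a ubiquitin ligase of the Notch pathway, Igfbp4, which binds insulin-like growth factors, the chromatin remodeller Chd3 and Acap1, a GTPase-activating protein of endosomes. Dtx1 had 96.0 and 51.5 FPKM (-0.89), Igfbp4 89.9 and 58.4 FPKM (-0.61), Chd3 123 and 89.5 FPKM (-0.46) and Acap1 123 and 91.3 FPKM (-0.42). The receptors Notch1 (31.2 and 32.1 FPKM) and Notch2 (14 and 14.4 FPKM) and the factor Rbpj (8.23 and 8.11 FPKM) were nearly level beside Dtx1, and 18 of 23 Notch genes were higher, or 15 with the median change of all genes set to 0.

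Cholesterol synthesis enzymes were lower in 19 of 22 members, beside 33.9% of all genes, with a median of -0.21. Of the 22, 5 were at -0.3 or lower, beside 2.19% of all genes. The pathway starts from acetyl groups, and among its early steps Hmgcs1 had 15.4 and 11 FPKM (-0.44). At the isoprenoid step Idi1 had 12.4 and 8.13 FPKM (-0.55) and Fdps 14.7 and 11.8 FPKM (-0.30). In the sterol steps Sqle had 6.19 and 4.99 FPKM (-0.26), Cyp51 7.93 and 5.16 FPKM (-0.54) and Sc4mol, now named Msmo1, 9.72 and 7.07 FPKM (-0.41). The 3 members that were higher were Lbr (77.2 and 84.1 FPKM), Pmvk (10.2 and 11.3 FPKM) and Acat2 (10.6 and 12 FPKM). Lbr is both a sterol reductase and a protein of the nuclear envelope.

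Exporters of sterol were higher. Abca1 and Abcg1, which the sterol-sensing LXR receptors raise, had 3.36 and 6.71 FPKM (0.82) and 19.8 and 23.6 FPKM (0.24). Mylip, a ubiquitin ligase that LXR also raises, had 18.6 and 24.6 FPKM (0.38). Srebf2 had 58.7 and 47.5 FPKM (-0.30) and Insig1, a sterol-induced retention factor that is itself a target of Srebf2, 12.6 and 9.75 FPKM (-0.34). The LXR receptor Nr1h2 (40.4 and 40.5 FPKM) and the escort protein Scap (24 and 24.7 FPKM) were nearly level.

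Fatty acid synthesis showed no common direction, with 9 members higher and 9 lower and a median of -0.01. Acly, which makes acetyl-CoA from citrate, had 54.9 and 51.9 FPKM and Fasn, the fatty acid synthase, 21.2 and 20.6 FPKM. The desaturases of polyunsaturated fatty acids stood out on the higher side, with Fads2 at 3.69 and 6.18 FPKM (0.61) and Fads3 at 3.24 and 5.25 FPKM (0.56).

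Oxidation of fatty acids was higher in 25 of 27 members, beside 66.1% of all genes, with a median of 0.17. Of the 27, 6 were at 0.3 or more, beside 5.24% of all genes. With the median change of all genes set to 0, 21 of the 27 were higher. Cpt1a, the gate for long-chain fatty acids at the mitochondrial membrane and the step that limits their oxidation, had 26.4 FPKM without DSS and 53.3 FPKM after it, a change of 0.99. Slc25a20, which carries acylcarnitine across the inner membrane, had 15.9 and 21.5 FPKM (0.41), and Cpt2, which completes the transfer, 6.32 and 6.60 FPKM (0.05). Crat (2.86 and 4.39 FPKM), Acot1 (1.86 and 2.78 FPKM), Acsl1 (4.82 and 6.57 FPKM) and the thiolase Acaa2 (30.1 and 37.7 FPKM) had changes from 0.32 to 0.48. Cpt1a, Slc25a20 and Acaa2 are also targets of PPAR receptors, and 12 of 14 members of that list were higher, beside 66.1% of all genes. Pdk2 (4.86 and 6.66 FPKM, 0.39) and Rxra (5.25 and 6.68 FPKM) were among the 12. Ppard, the PPAR form with a row, had 8.63 and 7.79 FPKM.

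**Figure D3:**
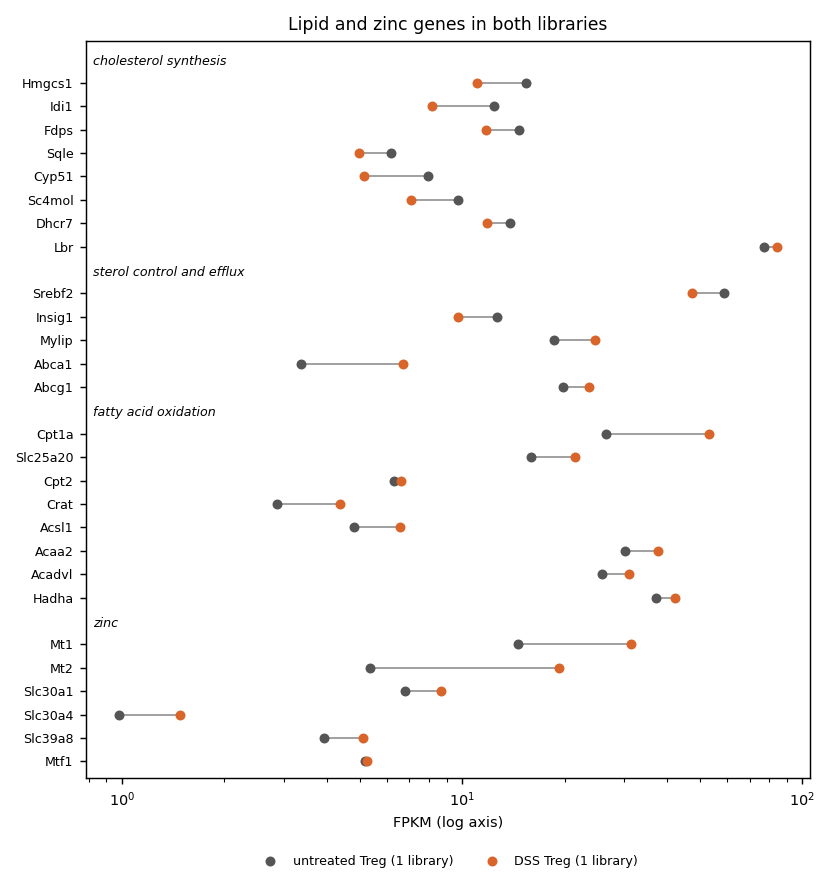
FPKM (log axis) of genes of cholesterol synthesis, sterol control, fatty acid oxidation and zinc in the untreated (grey) and DSS (orange) libraries, 1 library each. In the DSS library the cholesterol enzymes drawn here, a selection of the list, lie to the left but for Lbr, and Abca1, Cpt1a, Mt1 and Mt2 lie to the right.

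The metallothioneins, small proteins that bind zinc and copper and are raised through metal response elements, had Mt2 at 5.38 FPKM without DSS and 19.2 FPKM after it (1.66) and Mt1 at 14.6 and 31.3 FPKM (1.05). The reference transcripts of Mt1 and Mt2 share 0% of their 50-base words, so these are separate measurements. In the whole zinc list 13 of 20 members were higher, beside 66.1% of all genes, or 10 with the median change of all genes set to 0. Of the 20, 5 were at 0.3 or more, beside 5.24% of all genes, and they were Mt1, Mt2 and 3 transporters. On that other scale 2 were, Mt1 and Mt2, and none of the transporters. The exporter Slc30a1, another gene raised by zinc, had 6.81 and 8.70 FPKM (0.31), Slc30a4 had 0.981 and 1.48 FPKM (0.33), and the importer Slc39a8 had 3.92 and 5.12 FPKM (0.31). Mtf1 had 5.18 and 5.27 FPKM. The 15 remaining members of the list, Mtf1 included, lay between -0.19 and 0.17. Metallothioneins are also raised by glucocorticoids, and in that list 19 of 23 members were higher, beside 66.1% of all genes, with a median of 0.15. With the median change of all genes set to 0, 17 of that list were higher. Its members Tsc22d3 (229 and 248 FPKM), Fkbp5 (19.9 and 23.7 FPKM), Ddit4 (203 and 239 FPKM) and Il7r (87.0 and 116 FPKM) had changes from 0.11 to 0.42, and only Il7r was past 0.3.

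The stress pathways did not share a direction. Cytosolic chaperones, which fold proteins and are raised by Hsf1, were lower in 21 of 26 members, beside 33.9% of all genes, with a median of -0.10. Hsph1 had 57.9 FPKM without DSS and 35.5 FPKM after it (-0.69) and its partner Stip1 77.7 and 60.8 FPKM (-0.35). Hspa1a (2.32 and 1.5 FPKM) and Hspa1b (3.11 and 1.82 FPKM) share 58.8% of the 50-base words of Hspa1a and were both lower. Genes of NRF2 and antioxidant defence were higher in 25 of 27 members (median 0.17), beside 66.1% of all genes. Gsta4, a glutathione transferase, had 1.66 and 4.65 FPKM (1.09), Gss, which makes glutathione, 3.07 and 4.52 FPKM (0.44), Sod1 145 and 189 FPKM (0.37) and Prdx2 62.6 and 80.9 FPKM (0.36). Prdx2 is abundant in red cells, and Nfe2l2, which encodes NRF2, had 18.8 and 19.5 FPKM. Genes of ATF4 and amino acid supply were higher in 24 of 26 members (median 0.12), with Asns, which makes asparagine, at 9.89 and 16.1 FPKM (0.65) and Sesn2 at 3.34 and 4.91 FPKM (0.45). With the median change of all genes set to 0, these last counts were 21 of 27 and 20 of 26. In the unfolded protein response 17 of 27 members were lower, with Hspa5 and Hsp90b1 among them and only Sdf2l1 (21.9 and 17.3 FPKM) at -0.3 or lower.

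Genes of cell division were higher by small amounts. Of 42 replication genes 38 were higher, with a median of 0.22 and 10 members at 0.3 or more. Of 46 mitosis genes 45 were higher, with a median of 0.26 and 12 at 0.3 or more. Of all genes 66.1% were higher and 5.24% were at 0.3 or more. With the median change of all genes set to 0, 37 replication and 45 mitosis genes were higher, and 4 and 6 were at 0.3 or more. Tk1, which salvages thymidine, had 13.9 and 19.7 FPKM (0.48), the licensing factor Cdt1 19.6 and 26.3 FPKM (0.41) and Rrm2, a subunit of ribonucleotide reductase, 28.5 and 37.1 FPKM (0.37). The 6 subunits of the Mcm helicase ranged only from 0.16 to 0.24. In mitosis, Mybl2 had 4.86 and 7.15 FPKM (0.47), the kinase Plk1 9.54 and 13.4 FPKM (0.45) and cyclin B1 (Ccnb1) 9.16 and 12.6 FPKM (0.42), and Mki67 had 33.7 and 39.6 FPKM. The D-type cyclin Ccnd2, which T cell signals raise, had 103 and 83.9 FPKM (-0.29), and Myc 36.6 and 31.0 FPKM (-0.23). In the same libraries the markers of red cell precursors, which divide, were higher in 40 of 40 members, and their part in these values was not tested.

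**Figure D4:**
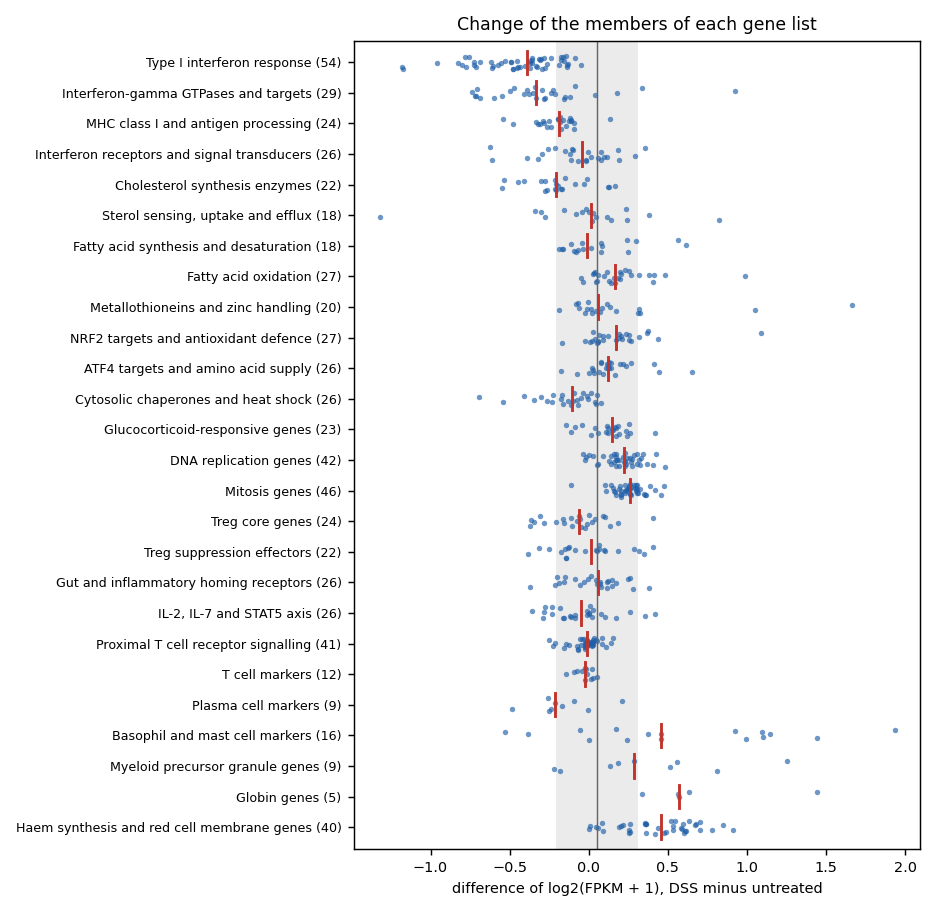
Difference of log2(FPKM + 1), DSS minus untreated, of each member past the filter of 26 gene lists, with the number of members in brackets and the list's median as a red bar. The grey band spans the central 90% of all genes and the grey line their median. The type I interferon and interferon-gamma lists lie mostly left of the band, and the red cell lists mostly to its right. The medians of interferon receptors and signal transducers (-0.04) and of MHC class I (-0.19) lie inside the band.

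Foxp3, which defines Treg, had 88.2 FPKM without DSS and 84.9 FPKM after it. Of 24 core genes of Treg 16 were lower, beside 33.9% of all genes, and 8 higher, with a median of -0.06. With the median change of all genes set to 0, 19 were lower. There were 4 core genes at -0.3 or lower, beside 2.19% of all genes, and 5 on that other scale. Those at -0.3 or lower were the integrin Itgae, which binds epithelial cadherin (16.4 and 12.4 FPKM), the signal regulator Rgs1 (105 and 81.6 FPKM), the actin capper Capg (107 and 84.0 FPKM) and Lrrc32, which displays latent TGF-beta on Treg (17.2 and 13.8 FPKM). Il2ra, the high-affinity chain of the interleukin 2 receptor, had 82.0 and 67.2 FPKM (-0.28), and Ikzf2, which encodes Helios, 62.0 and 57.1 FPKM. Tigit, an inhibitory receptor, was the core gene at 0.3 or more, with 43.7 and 58.2 FPKM (0.40).

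Molecules by which Treg suppress other cells went both ways, 11 higher and 11 lower. The cytokine Il10 had 1.66 and 2.32 FPKM (0.32), the adenosine receptor Adora2a 12.9 and 16.7 FPKM (0.35), Pdcd1, which encodes PD-1, 28.4 and 34.9 FPKM (0.29) and Ctla4 128 and 146 FPKM (0.18). Granzyme B (Gzmb) had 3.85 and 2.71 FPKM (-0.39) and the galectin Lgals3 6.70 and 5.19 FPKM (-0.32). Tgfb1 (75.2 and 78.7 FPKM) and Lag3 (11.5 and 12.4 FPKM) were nearly level. The cytokines Xcl1 (1.59 and 0.642 FPKM) and Il4 (0.946 and 1.30 FPKM) were at the edge of listing. Ccl5, a chemokine of memory and cytotoxic lymphocytes, had 8.06 and 11.2 FPKM (0.43). Lta, which encodes lymphotoxin alpha, had 27.8 and 21.5 FPKM (-0.36).

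Receptors that guide cells to the gut or to inflamed tissue had 16 members higher and 10 lower, which became 13 and 13 with the median change set to 0. Ccr9, the receptor for homing to the small intestine, had 2.88 and 4.06 FPKM (0.38), Ccr2 13.8 and 16.9 FPKM (0.28), Cxcr4 142 and 170 FPKM (0.26) and Ccr6 11.4 and 13.7 FPKM (0.25). Gpr15, which guides T cells to the colon, had 6.44 and 7.08 FPKM (0.12). The integrin chains that pair to bind gut vessels, Itga4 and Itgb7, had 91.9 and 96.4 FPKM and 288 and 250 FPKM. Of 23 genes of resting, recirculating cells 17 were lower, beside 33.9% of all genes, or 19 with the median change set to 0, and the median was -0.06. Those at -0.3 or lower were Igfbp4, Ly6c1 and Dapl1 (25.2 and 18.7 FPKM, -0.41). Ccr7 (123 and 118 FPKM) and S1pr1 (139 and 134 FPKM) were nearly level, and Il7r was the member most above untreated Treg. The lineage factors Gata3 (38.8 and 40.7 FPKM) and Tbx21 (2.88 and 2.98 FPKM) were nearly level.

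In the interleukin 2 axis 15 of 26 members were lower and 11 higher, beside 33.9% and 66.1% of all genes. Besides Il2ra, the shared gamma chain Il2rg had 339 and 289 FPKM (-0.23) and Cish, a STAT5 target, 68.1 and 56.1 FPKM (-0.28), while Stat5a had 41.3 and 41.0 FPKM and Pim1 107 and 109 FPKM. In proximal T cell receptor signalling none of the 41 members was past 0.3 in either direction, beside 5.24% and 2.19% of all genes. Cd3e had 468 and 473 FPKM, Zap70 87.0 and 85.4 FPKM and Lat 297 and 292 FPKM. Of 28 immediate early genes, which respond to that receptor within minutes to hours, 15 were higher and 13 lower with a median of 0.01. Egr1 (35.3 and 35.1 FPKM) and Nr4a1 (32.7 and 32.2 FPKM) were nearly level, and those past 0.3 were Klf10 (7.76 and 10.4 FPKM, 0.38) and Rgs1. Of 31 NF-kB genes only Bcl3 (14.1 and 17.8 FPKM, 0.32) was past 0.3. In the BCL2 family 17 of 22 members were higher, beside 66.1% of all genes, or 15 with the median change of all genes set to 0. Of the 22, 3 were at 0.3 or more, beside 5.24% of all genes, and 2 on that other scale. The 3 were promoters of apoptosis, Bad (7.64 and 10.8 FPKM), Bbc3 (12.2 and 15.8 FPKM) and Bnip3 (1.94 and 2.63 FPKM).

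Sox12, the gene of the series title, had 0.715 FPKM without DSS and 1.52 FPKM after it, a change of 0.55. It was past the listing level in the DSS library alone, so the listing itself sets the direction of its change. Of the genes with a mean from 1 to 5 FPKM, its class, 10.7% had a change of at least 0.3, beside 5.24% of all genes. Its relative Sox4 had 4.18 and 3.92 FPKM, and Sox6, a factor of red cell precursors that was below the filter, had 0.674 and 1.30 FPKM.

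Defining markers of T cells were high in both libraries, Cd4 having 247 and 243 FPKM and Cd3g 428 and 443 FPKM. Of the 4 CD8 T cell markers Cd8a had no row, while Cd8b1 (5.95 and 5.40 FPKM) and Eomes (2.37 and 1.94 FPKM) passed the filter and Gzmk did not. Markers of other cells were present too, and most of those of red cells, basophils and myeloid precursors were higher in the DSS library. Of 43 genes of haem synthesis, iron and the red cell membrane 40 had a row and all 40 were higher, beside 66.1% of all genes. Beside 5.24% of all genes, 27 of the 40 were at 0.3 or more, with a median of 0.46 for the 40. Their summed level was 1350 FPKM without DSS and 1668 FPKM after it. The 5 globin genes with a row were all higher, with sums of 546 and 831 FPKM, and Hba-a1, which shares 72.3% of its 50-base words with Hba-a2, had 250 and 388 FPKM. The factors of the lineage Gata1 (17.1 and 22.2 FPKM) and Klf1 (14.9 and 23 FPKM), the receptor Epor for erythropoietin (5.64 and 8.70 FPKM) and the transferrin receptor Tfrc (24.4 and 37.4 FPKM) were among them. Rhag, of the Rh complex of the membrane, had 9.67 and 19.0 FPKM (0.91). Red cell genes were thus well above the listing level in the untreated library as well.

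Basophils and mast cells release histamine and granule proteases. Of 28 genes of that list 22 had a row and 16 passed the filter. Of the 16, 13 were higher, 10 at 0.3 or more and 5 at 1 or more, beside 66.1%, 5.24% and 0.190% of all genes. Most are near the listing level, where a row itself requires a high value on 1 side. The median of the 16 was 0.45, and it was 0.17 with a pseudocount of 5 and 1.18 with a minimum mean of 5 FPKM. Few members reach that mean, and Ifitm1 and Osm, which other lists also hold, are among them. The sum over the 22 was 42.2 FPKM without DSS and 77.3 FPKM after it. The basophil proteases Mcpt8 and Prss34 had 2.56 and 12.6 FPKM (1.93) and 2.44 and 8.35 FPKM (1.44). Cpa3, a granule carboxypeptidase, had 1.79 and 5.16 FPKM (1.14), Hdc, which makes histamine, 0.451 and 2.11 FPKM (1.10), and Cyp11a1 0.452 and 1.89 FPKM (0.99). Fcer1a, the chain of the IgE receptor that binds IgE, was below the filter with 0.329 and 1.36 FPKM. Mcpt1, a protease of mucosal mast cells, went the other way with 2.01 and 1.08 FPKM, as did Gzmb, which Treg and cytotoxic cells also carry.

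**Figure D5:**
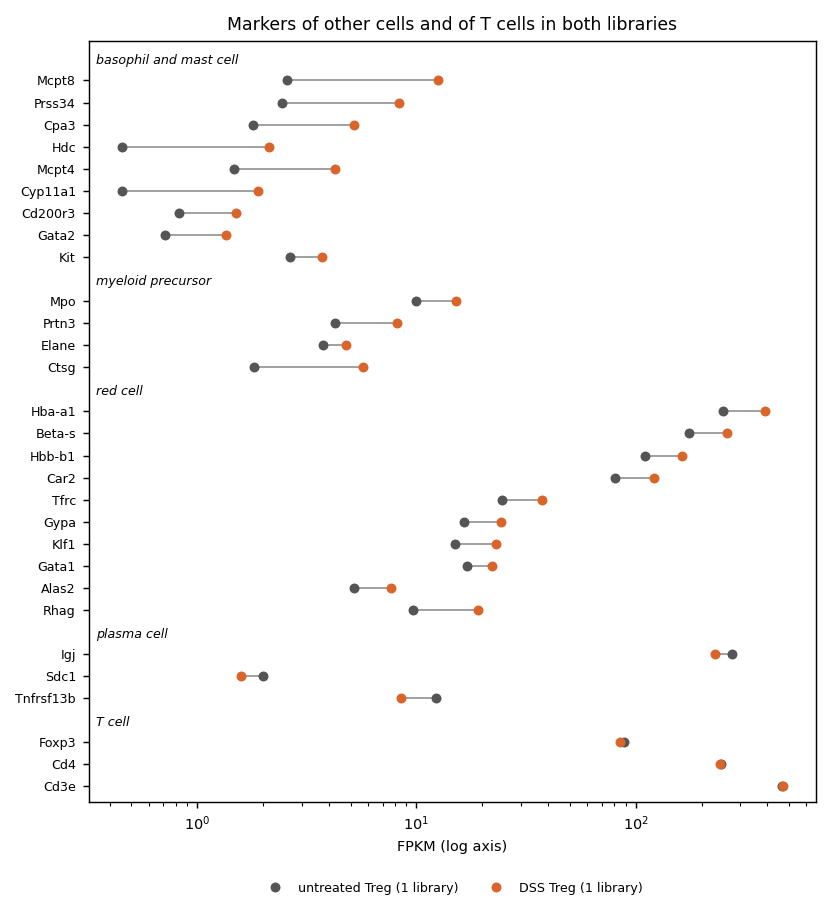
FPKM (log axis) of markers of basophils and mast cells, myeloid precursors, red cells, plasma cells and T cells in the untreated (grey) and DSS (orange) libraries, 1 library each. The genes drawn are a selection of each list. Their points lie to the right in the DSS library in the first 3 groups and to the left for plasma cells, and those of Foxp3, Cd4 and Cd3e nearly coincide. Past the filter, 3 of 16 members of the basophil and mast cell list were lower and 1 of 9 plasma cell genes was higher.

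Granule genes of myeloid precursors were higher in 7 of 9 members past the filter, beside 66.1% of all genes. Ctsg had 1.82 and 5.72 FPKM (1.25), Prtn3 4.24 and 8.16 FPKM (0.81) and Mpo 9.99 and 15.2 FPKM (0.56), while Elane had 3.73 and 4.77 FPKM. Mature neutrophils were not seen: of 17 markers 2 had a row, S100a8 and S100a9, both below the filter, with sums of 2.27 and 1.13 FPKM. Of 25 monocyte and macrophage markers 10 had a row and 7 were higher, beside 66.1% of all genes, with a median of 0.17. The sums of these markers, 154 and 135 FPKM, were mostly Ctss (112 and 86.9 FPKM), and Csf1r, Adgre1 and Cd14 had no row. Of 19 stem and progenitor cell markers 8 had a row, all past the filter. Of the 8, 6 were higher and 5 were at 0.3 or more, beside 66.1% and 5.24% of all genes. The median of the 8 was 0.36, and their sums of 76.6 and 67.0 FPKM include Ly6a. Ccl6, a chemokine of myeloid cells, had the highest change of all genes past the filter, with 0.0823 FPKM without DSS and 7.46 FPKM after it (2.97), and Ccl3 had 0.288 and 2.83 FPKM (1.57). Plasma cell genes were lower in 8 of 9 members, beside 33.9% of all genes, with sums of 391 and 332 FPKM. Igj, the joining chain of antibodies, had 277 and 231 FPKM and Tnfrsf13b 12.3 and 8.53 FPKM (-0.48). Of 14 B cell markers 4 had a row, with sums of 15.1 and 16.4 FPKM, and of 13 colon epithelium markers 2, Car1, which red cells also carry, and Epcam (1.38 and 2.54 FPKM). Of 13 dendritic cell markers 5 had a row, and their sums of 71.6 and 48.6 FPKM were mostly Bst2, which is also an interferon target. The part of any of these cells in the differences above was not tested.

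Of the named genes whose mean reached 50 FPKM, 5 of the 12 with the highest change were red cell genes. The others included Cd24a, a surface glycoprotein that red cell precursors also carry (70.1 and 111 FPKM, 0.65), the membrane protein Serinc3 (156 and 216 FPKM, 0.47), the Rac regulator Arhgap15 (47.9 and 62.6 FPKM, 0.38) and the phosphatase Acp5 (102 and 131 FPKM, 0.36). In the class from 5 to 50 FPKM, Ston1, an adaptor of endocytosis, had 5.47 and 12.1 FPKM (1.02), and Tgoln2, a protein of the Golgi, 3.89 and 8.73 FPKM (0.99). Below 5 FPKM, Neb, the giant protein nebulin of muscle, had 1.33 and 6.20 FPKM (1.63) and Plaur, the urokinase receptor, 0.369 and 1.69 FPKM (0.97). On the lower side of that class Lst1 had 4.46 and 1.35 FPKM (-1.21) and H2-Aa, of MHC class II, 2.54 and 0.922 FPKM (-0.88). The 10 genes with the highest mean, from Eef1a1 (3801 and 3855 FPKM) to Rps10 (1236 and 1297 FPKM), all lay between -0.19 and 0.07.

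Of the 28 genes past a change of 1 in size, 7 were predicted or clone-named, and some share sequence with another gene. Ndufs5, a subunit of complex I, had 9.20 FPKM without DSS and 0.000480 FPKM after it (-3.35), while BC002163, which the GENCODE annotation calls a processed pseudogene, had 2.59 and 16.1 FPKM (2.25). BC002163 shares 72.6% of its 50-base words with Ndufs5, while 21.7% of the words of Ndufs5 occur in BC002163. Whether reads of one were assigned to the other was not tested. The sum of both was 11.8 FPKM without DSS and 16.1 FPKM after it, a change of 0.42, so neither single value can be read as a difference of that gene. The other respiratory chain subunits ranged up to 0.41, and 61 of the 75 were higher, beside 66.1% of all genes, with a median of 0.07. With the median change of all genes set to 0, 42 of the 75 were higher. Atp6v0c-ps2 had 0.00552 and 5.08 FPKM (2.60) and shares 88.0% of its words with Atp6v0c, which had 57.6 and 55.6 FPKM. The predicted gene Gm12238 had 7.30 FPKM in untreated and is listed at 0 in DSS Treg.

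In the vector experiment, wild-type C57BL6 naive CD4 T cells carried a mock vector or a Sox12 vector, 1 library each. Among the 10822 genes past the filter there, 732 were past a change of 1 in size. Of the 28 genes past it here, 5 were also past it there in the same direction, 17.9% of the 28 and 0.683% of the 732. Set beside this are 732 of 10822 genes past it there in either direction. These were Mt2, Ccl3, Gsta4, Lst1 and the predicted gene Gm12238. Ctsw was past it in both with opposite directions, lower after DSS (-1.11) and higher with Sox12 (1.89). Many of the 28 were below the filter there and could not be counted, among them Oas2, Ccl6, Mcpt8 and Prss34. The 17.9% is therefore not a share of the genes that could be past it in both. Of the interferon list 48 members passed the filter there, and 39 were lower with Sox12 than with the mock vector, beside 51.1% of all genes, with a median of -0.74 beside -0.01 for all 10822 genes. The table of that experiment was made separately, and no value was set across the tables.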

How the data were processed

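Total RNA was purified and strand-specific libraries were made, per the labels' protocols, and Cufflinks and the build mm9 are given, without versions, in the submitters' processing notes. Aligner, annotation and strand use in counting: not given in the sources used here, so overlapping and antisense genes are uncertain. The deposited DSS table holds FPKM and a fold change that the authors gave as the ratio of DSS to untreated, which recomputing gave within a relative difference of 0.000448. Values of the vector table were deposited as log2(FPKM + 1) and were turned back to FPKM. Symbols are as deposited. Of the rows of the DSS table, 16 had a name that had become a date and were left out, and 0 columns of values lacked a sample.

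Groups were taken from the libraries' titles. Changes are differences of log2(FPKM + 1), which understate low genes, for genes whose mean reached 1 FPKM. The summed FPKM of the listed genes was 326466 in untreated and 329610 in DSS Treg. Depth is unknown, as only 3 and 2 values lie below 0.1 FPKM, so no interval is given. No test was possible with a single library a side.

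The genes and the 68 lists (51 pathways, 17 cell types, covering 1212 genes past the filter) were chosen with earlier results of these data known. The text names Foxp3 and Sox12, genes among the 12 with the largest change in each direction in the classes 1 to 5, 5 to 50 and at least 50 FPKM, up to 8 members of a list with a change of at least 0.3 in size and its 3 highest, and the 10 highest genes. Further members are named to show a pathway's steps, and were chosen with their values known. Predicted genes, small RNAs and receptor segments were left out of the rule. Not every gene the rule takes is described, and some are not reported here. Promoters are from RefSeq (GRCm38.p6), and words shared between transcripts were counted in GENCODE vM21 on GRCm38. The authors used a different build, so coordinates refer to that build only. Python 3.11.15, numpy 2.4.6 and pandas 2.3.3 were used, and the steps were tested on simulated data. Alternatives were a pseudocount of 0.1 or 5, a minimum mean of 5 FPKM, no filter, and 3 other scalings.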

Additional observations from a re-analysis of the deposited data

How the results depend on the processing

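The counts depended on the pseudocount and the filter. With a pseudocount of 0.1 there were 39 genes with a change of at least 1, 20 of -1 or lower, 884 of at least 0.3 and 354 of -0.3 or lower. With a pseudocount of 5 these were 6, 3, 187 and 102, and with a minimum mean of 5 FPKM they were 8, 2, 288 and 129. With the median change set to 0, 350 genes were at -0.3 or lower. Each other count under the alternatives run stayed within 1.5 times its value. Of the 20 lists with at least 80% of members on 1 side, the median changed sign in 1 case, the circadian clock genes with the median change set to 0 (-0.002605), where a shift of all genes by 0.05 is the construction of that setting. The median of the type I interferon list ranged from -0.44 to -0.30, of the cholesterol list from -0.26 to -0.15, of the red cell list from 0.34 to 0.53 and of the basophil list from 0.17 to 1.18. The 1.18 was found with the minimum mean of 5 FPKM, which few of the basophil list reach. None of 197 named genes with a change of at least 0.3 in size changed sign, and this outcome was fixed in advance. A pseudocount or a filter cannot change a sign, and the other scalings moved the median change by no more than about 0.05. The count is therefore no measure of how firm these changes are. No paired analysis was possible because each group holds 1 library. The depth is unknown, so values near 1 FPKM carry an error that cannot be given.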
